A study of Mus musculus with 24 samples.

Results

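The genes described here are the solute carrier (Slc) genes that were expressed in tumours grown from LLC1 (Lewis lung carcinoma) or KP, both mouse models of lung cancer. A gene was a member if it is protein-coding, if its GENCODE vM21 symbol starts with Slc and a digit, and if in at least 1 group of a line its mean on the deposited log2 scale exceeded the table's lowest value by 1 or more. That limit is close to 130.4 normalised counts for LLC1 and 144.2 for KP. By this rule 6 genes were left out beforehand (Slc2a1, Slc16a3, Slc7a11, Slc3a2, Slc40a1 and Slc7a5). Of 37230 genes measured in either line 181 were members, 140 of them in both lines, 14 in LLC1 alone and 27 in KP alone. In LLC1 154 of 351 Slc genes in the table passed and 197 fell under the limit. In KP 167 of 359 passed and 192 fell under it. The members were thus chosen by their expression level, so that a member is expressed is not a result.

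RNA was sequenced from live CD45-negative cells sorted from tumours on day 15 after mice were injected with tumour cells, with 3 libraries in each of 8 groups. LLC1 tumours were chronic IFNG (exposed to low-level interferon gamma over a long time), relapsed after immune checkpoint blockade (ICB), or parental. KP tumours were chronic IFNG, 1st relapse, 2nd relapse, late relapse or parental, and all KP groups, the parental controls included, share 1 engineered genotype. The treatment field reads None for every library, and the labels do not say whether a group came from 1 clone, how chronic exposure was given, or how late relapse differs from the others in time. The submitters call the 3 libraries of a group biological replicates without stating that they came from separate animals, so p-values measure the spread between these samples only.

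Solute carriers are membrane proteins that move ions, metals, nutrients, vitamins and metabolites down a gradient or by coupling them to the gradient of another ion. Most sit in the plasma membrane, and the Slc25 family carries metabolites across the inner mitochondrial membrane. The Slc35 family holds the carriers that bring nucleotide sugars into the endoplasmic reticulum and Golgi. Tumour cells depend on them for amino acids, glucose, lactate release and pH control, and many of the same genes mark absorptive epithelia such as kidney and gut.

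Expression levels are given as normalised counts, calculated back from the deposited log2-scale values, and a fold is the ratio of 2 group means of normalised counts. Differences written as log2 are on the deposited scale, which shrinks differences of low genes, and each carries its standard error from limma. A gene was called higher or lower at a limma adjusted p below 0.05, with the Benjamini-Hochberg adjustment over 10581 genes in LLC1 or 11193 in KP. For a member above the limit in only some groups (14 of 154 in LLC1, 30 of 167 in KP), a comparison with a group under the limit favours a difference by construction, so its values and fold are given with no p. In bulk samples, fewer cells of a type and less RNA per cell cannot be told apart.

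Of the 154 LLC1 members, 61 were called in relapsed and 38 in chronic IFNG against parental tumours. More of all genes were also called in relapsed than in chronic IFNG tumours. In relapsed against parental LLC1, 45 members were called higher and 16 lower, against a background over all genes tested of 25.9% called higher and 19.5% called lower. The members' shares were 29.2% and 10.4%, so the share called lower lay under the background. In chronic IFNG against parental LLC1, 14 were higher and 24 lower, 9.09% and 15.6% of members, close to the background of 9.03% and 15.5%. Centring each library on its median turned that split to 20 higher and 18 lower, and without Parental replicate 1 the counts were 8 and 15. In relapsed against chronic IFNG LLC1, 56 were higher and 23 lower, where the background was 31.5% and 20.5%, and median centring gave 43 and 33. An F test over the 3 groups called 84 of 154 members (54.5%, background 60.7%).

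In KP the members moved more often, as did all genes. In chronic IFNG against parental KP, 35 members were called higher and 10 lower, 21.0% and 5.99%, where the background was 12.8% and 9.00%. Median centring gave 32 and 18 there, and without Chronic IFNG replicate 1 only 4 were lower. In 1st relapse 56 were higher and 29 lower than in parental tumours (background 25.4% and 25.5%), in 2nd relapse 78 and 46 (background 36.8% and 29.0%), and in late relapse 67 and 41 (background 31.0% and 25.9%). The members' shares called higher were 33.5%, 46.7% and 40.1% in 1st, 2nd and late relapse, each 8 to 10 percentage points above the background of the same comparison. These shares include members under the limit in some KP groups, for which a difference is favoured by construction. The genes behind the background passed the same limit and were not restricted to those above it in every group either. Among the 137 members above the limit in every KP group, 22 were higher and 7 lower in chronic IFNG, 40 and 23 in 1st, 61 and 39 in 2nd and 50 and 34 in late relapse. No background over genes above the limit in every group was calculated, so whether the excess holds for these members was not tested. Between relapse stages, 55 members were higher and 54 lower in 2nd than in 1st relapse (background 34.3% and 28.0%), and 48 and 51 in late than in 2nd relapse (background 25.2% and 29.7%). The F test over the 5 KP groups called 150 of 167 members (89.8%, background 87.0%), and 2nd relapse held the highest mean of 50 and the lowest of 38 of these. These comparisons share the parental libraries, so their counts are not independent of each other.

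**Figure D1:**
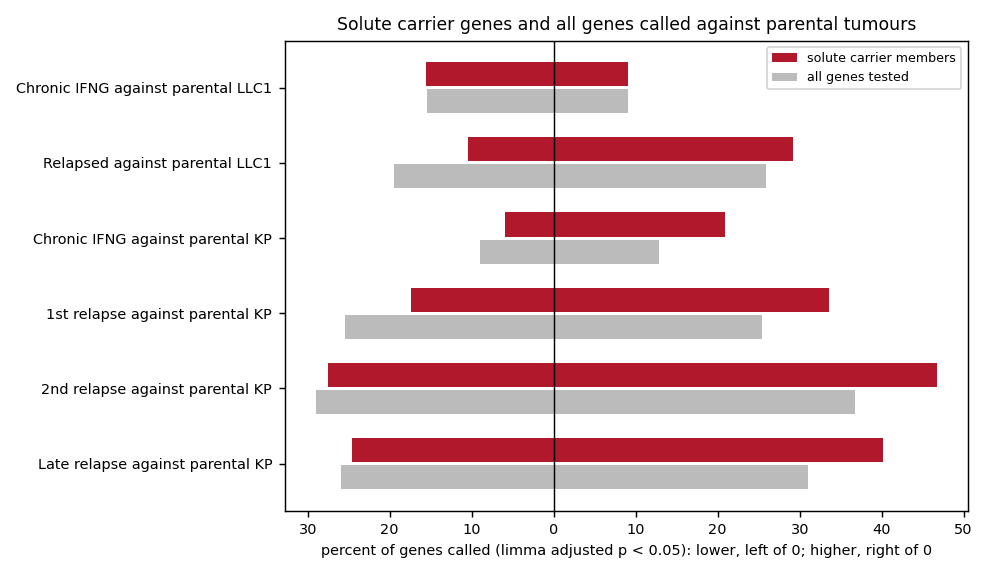
Share of expressed solute carrier genes (red bars) and of all genes tested (grey bars) called in each comparison with parental tumours, in percent, with genes called higher drawn right of 0 and genes called lower left of it. In relapsed LLC1 29.2% of members were called higher beside 25.9% of all genes, and in 2nd relapse KP 46.7% beside 36.8%.

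The median size of the log2 difference over members, with the sign ignored, was 0.13 in relapsed LLC1 (0.15 over all genes). It was 0.27 in 2nd relapse KP (0.23 over all genes). With the sign kept, rises and falls cancel. The signed median over members was 0.07 in relapsed LLC1 (0.03 over all genes) and 0.11 in 2nd relapse KP (0.03 over all genes). Members held 0.967% of normalised counts in relapsed, 0.825% in chronic IFNG and 0.854% in parental LLC1, and between 0.851% and 0.962% in the 5 KP groups. Estimated depth was 13.3 to 35.0 M fragments per library. Summed levels of 10 fibroblast markers (in CPM, normalised counts scaled to the library total) averaged 1754 ± 415 in 1st relapse, 61.5 ± 8.09 in 2nd relapse and 638 ± 471 in late relapse KP, against 399 ± 85.1 in parental KP (SD, n = 3 each), and 2361 ± 93.8 in relapsed and 6482 ± 1251 in chronic IFNG LLC1, against 3154 ± 438 in parental LLC1. Summed epithelial markers ranged over 7839 to 8510 CPM in 2nd relapse, against 4351 to 4383 CPM in parental KP. Summed macrophage markers, of which 2 of 8 were high enough to test, averaged 79.5 ± 24.5 CPM in 1st, 277 ± 21.9 in 2nd and 242 ± 59.5 in late relapse, against 84.5 ± 16.2 CPM in parental KP, and ranged over 12.1 to 30.7 CPM in relapsed, against 9.89 to 13.1 CPM in parental LLC1. The 2 tested macrophage markers did not move together. Against parental tumours, 1 was called higher and 1 lower in 2nd relapse KP and likewise in relapsed LLC1. In late relapse 1 was higher and 0 lower, and in 1st relapse 0 were called. Pericyte and muscle markers averaged 45.0 ± 21.3 CPM in 1st, 5.71 ± 0.826 in 2nd and 23.5 ± 13.4 in late relapse, against 13.0 ± 2.72 CPM in parental KP. No leukocyte marker was high enough to test in either line, and the lung lineage markers summed to under 1.35 CPM in every KP library. The part of these markers in the differences of members was not tested.

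Of the log2 differences from parental tumours among all members of either line, the largest was that of a zinc carrier, Slc39a4. SLC39 (ZIP) proteins bring zinc into the cytosol and SLC30 (ZnT) proteins move it out or into vesicles. Of 15 zinc carriers in LLC1, 0 were called higher and 4 lower in chronic IFNG and 4 higher and 3 lower in relapsed tumours. Of 17 in KP, 1 was higher and 2 lower in chronic IFNG, 4 and 5 in 1st relapse, 7 and 5 in 2nd relapse and 6 and 5 in late relapse. Over all genes tested, 9.03% were called higher and 15.5% lower in chronic IFNG LLC1, and 25.9% and 19.5% in relapsed LLC1. In KP these shares were 12.8% and 9.00% in chronic IFNG and 25.4% and 25.5% in 1st relapse. They were 36.8% and 29.0% in 2nd relapse and 31.0% and 25.9% in late relapse. Counts of every class and list below stand beside these shares, and none was tested against them.

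Slc39a4 (ENSMUSG00000063354, chr15:76612383-76617384, minus strand, GRCm38) encodes ZIP4, the zinc importer of the gut that is mutated in the human zinc deficiency acrodermatitis enteropathica. It had 1286, 814 and 1038 normalised counts in chronic IFNG, 2259.7, 1618 and 2050.4 in 1st relapse, 4159, 4493 and 4700.4 in 2nd relapse and 2089.5, 2132 and 2379 in late relapse, against 209, 103 and 124 in parental KP. All 12 libraries of the other groups lay above the highest parental library, and no library of 2nd relapse overlapped any other group. The folds over parental tumours were 7.21, 13.6, 30.7 and 15.2 in chronic IFNG, 1st, 2nd and late relapse. Among groups above the limit, Slc39a4 rose 2.25-fold in 2nd against 1st relapse (log2 1.00 ± 0.12, limma adjusted p = 3.61e-06) and fell to 0.494 of its level in late against 2nd relapse (log2 -0.87 ± 0.12, adjusted p = 2.03e-05). In LLC1 the gene did not reach the limit.

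Slc30a1 encodes ZnT1, the zinc exporter of the plasma membrane, and is a textbook target of the zinc sensor MTF1, as are the metallothioneins Mt1 and Mt2. MTF1 binds metal response elements, searched here as TGCACNC or TGCGCNC on both strands in promoters from 250 bases before to 50 bases after the gene start. They are shown because Slc30a1 and Mt1 moved in opposite directions in the 2 lines. The RefSeq promoters (GRCm38.p6) are printed 5′ to 3′ on the gene's strand, with each match in capitals (a match on the other strand reads as its reverse complement). The Slc30a1 window is chr1:191906531-191906830 and the Mt1 window chr8:94178839-94179138, both on the plus strand.
Slc30a1: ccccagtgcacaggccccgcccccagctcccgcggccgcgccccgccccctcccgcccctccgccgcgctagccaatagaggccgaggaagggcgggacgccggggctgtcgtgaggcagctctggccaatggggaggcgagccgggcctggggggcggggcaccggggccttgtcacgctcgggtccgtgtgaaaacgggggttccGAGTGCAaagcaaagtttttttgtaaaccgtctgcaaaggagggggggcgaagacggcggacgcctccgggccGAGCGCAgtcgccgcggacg
Mt1: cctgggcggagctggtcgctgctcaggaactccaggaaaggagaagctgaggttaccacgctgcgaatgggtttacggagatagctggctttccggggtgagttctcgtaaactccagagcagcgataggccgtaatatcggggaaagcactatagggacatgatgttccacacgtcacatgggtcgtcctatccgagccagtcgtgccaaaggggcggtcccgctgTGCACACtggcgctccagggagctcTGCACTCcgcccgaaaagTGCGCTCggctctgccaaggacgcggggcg
Slc30a1 holds 2 matches and Mt1 holds 3. The motif was present in 25.6% of 27025 promoters and in 53 of the 138 member promoters in the table (38.4%), so its presence is common and is a description of letters only.

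In LLC1 Slc30a1 had 41.0, 36.2 and 50.6 normalised counts in relapsed tumours and 147, 155 and 149.6 in chronic IFNG, against 152, 127 and 185 in parental tumours. Relapsed libraries lay below all others and the chronic IFNG libraries fell within the parental range. The relapsed mean lay under the limit, at 0.276 of the parental mean. Mt1 showed 1609, 2249 and 3043 counts in relapsed and 5175, 6084 and 5732 in chronic IFNG, against 10262, 8005 and 7038 in parental LLC1. It fell in relapsed tumours (0.273 of parental, log2 -1.70 ± 0.17, adjusted p = 3.18e-05), and Mt2 fell further (0.206, log2 -1.94 ± 0.18, adjusted p = 1.76e-05). Both came from a list of metallothioneins and the zinc sensor, of which 3 genes could be tested in LLC1. In relapsed tumours 2 of them were called lower and 1, neither Mt1 nor Mt2, was called higher.

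In KP Slc30a1, Mt1 and Mt2 were each higher in 2nd relapse. Slc30a1 had 307, 331 and 286 counts there against 199, 202 and 195 in parental tumours, without overlap (1.55-fold, log2 0.27 ± 0.04, adjusted p = 9.78e-05). Its group means were 212 ± 16.5 in chronic IFNG, 252 ± 28.2 in 1st and 264 ± 11.6 in late relapse (SD, n = 3), and the late relapse call (1.33-fold, adjusted p = 0.00522) was lost under quantile normalisation. Mt1 rose 3.57-fold in 2nd relapse (log2 1.56 ± 0.12, adjusted p = 2.48e-08) and 2.47-fold in late relapse (log2 1.07 ± 0.12, adjusted p = 3.16e-06), and did not pass the test in chronic IFNG (0.17, adjusted p = 0.335) or 1st relapse (-0.05, adjusted p = 0.747).

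Other zinc carriers moved in opposite directions in relapsed tumours of the 2 lines. Slc30a4 encodes ZnT4, a vesicular zinc carrier whose loss gives the lethal milk mouse. It had 14877, 15500.0 and 14738 counts in relapsed, against 11041, 11138 and 10321 in parental LLC1, a rise of 1.39-fold (log2 0.46 ± 0.05, adjusted p = 8.43e-05). In KP it fell in 2nd relapse, with 2929, 2927 and 2913 counts against 6319, 6794 and 5906 in parental tumours (0.461, log2 -0.99 ± 0.07, adjusted p = 1.4e-08). Neither pair of groups overlapped. In chronic IFNG Slc30a4 was lower in both lines, at 0.884 of parental LLC1 (adjusted p = 0.0424) and 0.841 of parental KP (adjusted p = 0.0280). Both calls were lost without Parental replicate 1 or 2 or without Chronic IFNG replicate 1, and also without Chronic IFNG replicate 2 in LLC1 and 3 in KP (adjusted p over all alternatives up to 0.252 and 0.132). Slc39a13, a zinc carrier of the Golgi and vesicles known from connective tissue, showed the same split, at 1682 ± 31.2 in relapsed and 1262 ± 29.8 in parental LLC1 (1.33-fold, adjusted p = 0.000199), and at 568 ± 92.6 in 2nd relapse and 1597 ± 46.9 in parental KP (0.355, adjusted p = 9.89e-09). It also fell in 1st relapse (0.717, adjusted p = 0.000642) and late relapse (0.654, adjusted p = 8.04e-05).

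Slc39a10, a zinc importer of the plasma membrane, had 2839, 2851 and 2981 counts in chronic IFNG, against 4889, 4445 and 3736 in parental LLC1, and fell to 0.663 of the parental mean (log2 -0.51 ± 0.08, adjusted p = 0.00169). The relapsed libraries, at 4553, 4336 and 4635, lay within the parental range. In KP it rose 1.25-fold in 2nd relapse (adjusted p = 0.000977), where the 3 libraries were the highest of the line, and fell in chronic IFNG (0.828, adjusted p = 0.0122, and 0.0551 without Chronic IFNG replicate 3), as in LLC1, in 1st relapse (0.779, adjusted p = 0.000733) and in late relapse (0.840, adjusted p = 0.00705). Slc39a8, an importer of zinc and manganese, passed the limit in KP in the 3 relapse groups, with 219 ± 8.89 counts in 1st, 211 ± 48.1 in 2nd and 348 ± 29.8 in late relapse, against 119 ± 15.4 in parental tumours. Late relapse exceeded 2nd relapse 1.65-fold (adjusted p = 0.000344).

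**Figure D2:**
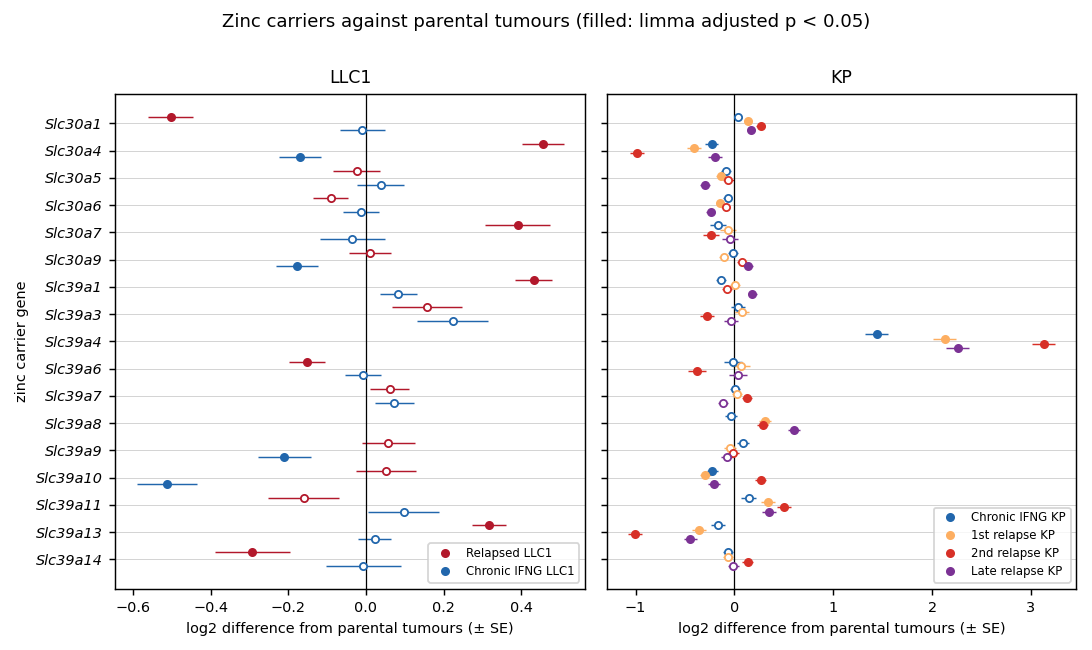
Log2 difference from parental tumours, with its standard error, for each expressed zinc carrier in each group of the 2 lines. Filled points were called at a limma adjusted p below 0.05, comparisons with a group under the limit included. Slc39a4 stands apart in all 4 KP groups (3.13 in 2nd relapse), and Slc30a1, Slc30a4 and Slc39a13 lie on opposite sides of 0 in relapsed LLC1 and 2nd relapse KP.

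Slc44a4 and Slc44a3 belong to the choline transporter-like family, and the human SLC44A4 protein takes up thiamine pyrophosphate in the colon. Slc44a4 (chr17:34914466-34930436, plus strand) had 1038, 591 and 989 counts in chronic IFNG, 1380.0, 1419.6 and 1625 in 1st relapse, 404, 438 and 404 in 2nd relapse and 432, 624 and 653 in late relapse, against 143, 80.0 and 147 in parental KP. Every other library lay above the parental ones, and 1st relapse was the highest group with no overlap. The folds over parental tumours were 7.08, 12.0, 3.37 and 4.62 in the same order. It fell to 0.282 of its level in 2nd against 1st relapse (log2 -1.16 ± 0.12, adjusted p = 1.18e-06).

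Slc44a3 (chr3:121459528-121532404, minus strand), on another chromosome, had 897, 532 and 903 counts in chronic IFNG, 1119, 1144 and 1291 in 1st relapse, 340.2, 359.6 and 389.6 in 2nd relapse and 393, 678 and 656 in late relapse, against 137, 89.0 and 142 in parental KP. The groups again did not overlap with parental tumours, with folds of 6.33, 9.65, 2.96 and 4.69. It fell to 0.306 of its level in 2nd against 1st relapse (log2 -1.03 ± 0.12, adjusted p = 5.07e-06). In both genes the 2nd library of chronic IFNG was the lowest of its group.

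Hnf4a, a nuclear receptor of liver, gut and kidney epithelium, is no carrier but was listed among regulators. It had 2058 ± 561 counts in chronic IFNG, 3167 ± 167 in 1st relapse, 4375 ± 271 in 2nd relapse and 2984 ± 213 in late relapse, against 385 ± 173 in parental KP (SD, n = 3 each), and was called higher in each, with folds of 5.35, 8.23, 11.4 and 7.76. Its level was highest in 2nd relapse, where Slc44a4 and Slc44a3 were lowest of the 4 groups and Slc39a4 highest. The promoters of the 2 choline carrier-like genes are shown because the genes moved together, with no match in capitals. Neither the metal response element nor the interferon-activated site TTCNNNGAA or the HNF4 site CAAAGTCCA, searched on both strands, was found in these windows, chr17:34914216-34914515 (plus strand) and chr3:121532295-121532594 (minus strand).
Slc44a4: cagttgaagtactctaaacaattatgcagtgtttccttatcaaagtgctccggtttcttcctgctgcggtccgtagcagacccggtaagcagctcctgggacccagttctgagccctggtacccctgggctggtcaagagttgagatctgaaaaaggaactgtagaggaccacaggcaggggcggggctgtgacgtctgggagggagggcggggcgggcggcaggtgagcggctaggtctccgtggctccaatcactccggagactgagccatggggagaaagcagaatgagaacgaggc
Slc44a3: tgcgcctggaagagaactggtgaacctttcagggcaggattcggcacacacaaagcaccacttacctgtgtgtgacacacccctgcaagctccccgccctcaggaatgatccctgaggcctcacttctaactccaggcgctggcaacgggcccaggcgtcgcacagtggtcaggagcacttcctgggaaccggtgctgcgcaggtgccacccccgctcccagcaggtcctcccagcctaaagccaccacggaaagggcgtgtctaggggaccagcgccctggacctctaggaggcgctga
Over all 27025 promoters the interferon-activated site was present in 8.47% and the HNF4 site in 0.477%. Among the 138 member promoters they were present in 6 (4.35%) and in 0. The HNF4 site as searched was rare over all promoters, so its absence from 2 windows describes letters only. Whether Hnf4a acts on these genes was not tested.

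Slc44a4 and Slc44a3 are among 15 vitamin, choline and nucleoside carriers that were members in KP. Of these 15, 5 were called higher and 1 lower in chronic IFNG, 5 and 4 in 1st relapse, 7 and 4 in 2nd relapse and 7 and 6 in late relapse. Of 12 in LLC1, 1 was higher and 3 lower in chronic IFNG and 3 higher and 1 lower in relapsed tumours. Slc44a1, a choline carrier, rose in all 4 KP groups, to 1415 ± 178 in chronic IFNG, 1557 ± 180.3 in 1st, 1881 ± 79.7 in 2nd and 1389 ± 162 in late relapse, against 913 ± 26.8 in parental tumours, with folds between 1.52 and 2.06 and adjusted p of 0.000824, 4.57e-05, 7.04e-07 and 0.000346. Slc44a2, a related choline carrier of the plasma membrane and mitochondria, fell in 1st, 2nd and late relapse (0.745, 0.375 and 0.683 of parental, adjusted p = 0.000228, 9.46e-10 and 2.04e-05). Slc5a7, the high-affinity choline carrier of cholinergic neurons, passed the limit in 2nd relapse alone, with 492, 356 and 467 counts there, against 52.2, 50.1 and 43.7 in parental tumours and 3.44 to 17.8 in the other libraries.

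Slc19a2, a thiamine carrier, differed in opposite directions in the 2 lines. It had 832, 910.3 and 887 counts in relapsed, against 1578, 1626 and 1521 in parental LLC1 (0.557, log2 -0.61 ± 0.05, adjusted p = 3.66e-06). In KP it had 938, 925 and 929 counts in 2nd relapse, against 345, 337 and 333 in parental tumours (2.75-fold, log2 0.84 ± 0.04, adjusted p = 3.15e-10). The spread within each group was small and no pair overlapped. Slc52a2, a riboflavin carrier, rose 2.10-fold in 2nd relapse KP (adjusted p = 3.85e-08) and 1.36-fold in relapsed LLC1 (adjusted p = 0.0078). Slc29a3, a nucleoside carrier of lysosomes, had 150.5, 147 and 136 counts in 2nd relapse, against 489, 457 and 460.4 in parental KP, 0.308 of the parental mean (log2 -0.73 ± 0.05, adjusted p = 8.25e-09).

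**Figure D3:**
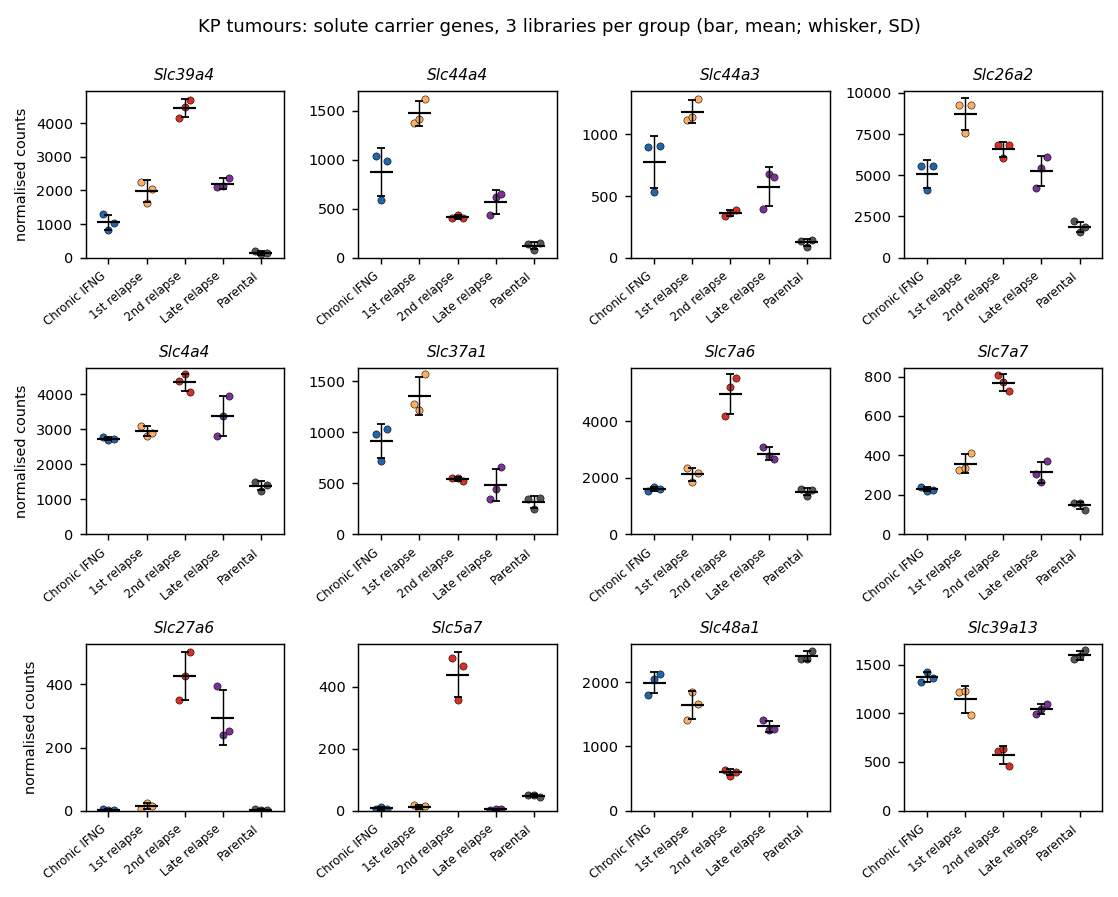
Normalised counts of 12 members in each KP library (points) with the group mean (bar) and SD (whisker), each panel on a linear axis from 0, for chronic IFNG, 1st relapse, 2nd relapse, late relapse and parental tumours. Slc39a4, Slc44a4 and Slc44a3 lie above parental tumours in all 12 libraries, while Slc48a1 and Slc39a13 are lowest in 2nd relapse.

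Amino acid carriers bring in the building blocks of protein and the glutamine used as fuel. Of 18 members in LLC1, 2 were called higher and 3 lower in chronic IFNG and 8 higher and 4 lower in relapsed tumours. Of 19 in KP, 7 were higher and 1 lower in chronic IFNG, 9 and 4 in 1st relapse, 10 and 6 in 2nd relapse and 10 and 4 in late relapse. All genes were also called higher more often than lower in relapsed LLC1 (25.9% and 19.5%), 2nd relapse (36.8% and 29.0%) and late relapse (31.0% and 25.9%). The same held in chronic IFNG KP (12.8% and 9.00%). It did not hold in 1st relapse (25.4% and 25.5%) or chronic IFNG LLC1 (9.03% and 15.5%). A list of carriers linked to amino acid stress, of which 6 could be tested in each line, had 5 higher and 1 lower in relapsed and 2 and 1 in chronic IFNG LLC1. In KP it had 4 and 0 in chronic IFNG, 3 and 1 in 1st, 4 and 1 in 2nd and 4 and 1 in late relapse. Atf4 encodes a transcription factor of the amino acid response. It averaged 6852 ± 186 counts in relapsed, against 6785 ± 849 in parental LLC1, and 2934 ± 123 in 1st, 10720 ± 353 in 2nd and 4445 ± 398 in late relapse, against 4396 ± 125 in parental KP (SD, n = 3 each).

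Slc7a6 (ENSMUSG00000031904, chr8:106168857-106198706, plus strand) encodes y+LAT2, a light chain that exchanges arginine for glutamine and sodium. It had 2331, 1859 and 2147 counts in 1st relapse, 4169.8, 5187 and 5531 in 2nd relapse and 3095, 2776 and 2672 in late relapse, against 1585, 1365 and 1558 in parental KP. The 3 stages did not overlap with one another or with parental tumours. It rose 1.41-fold (log2 0.38 ± 0.09, adjusted p = 0.0026), 3.30-fold (1.43 ± 0.09, adjusted p = 3.53e-09) and 1.90-fold (0.74 ± 0.09, adjusted p = 8.46e-06) in 1st, 2nd and late relapse. The chronic IFNG libraries, 1531, 1675 and 1596, overlapped the parental ones. In LLC1 it did not pass the test in relapsed tumours (log2 0.13, adjusted p = 0.226).

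Slc7a7 encodes y+LAT1, the related exchanger of kidney and gut. It had 324, 333 and 414 counts in 1st relapse, 809, 771 and 728 in 2nd relapse and 307, 266 and 372 in late relapse, against 156, 159 and 124 in parental KP. The relapse libraries all lay above the parental ones, and 2nd relapse was again the highest group. The folds were 2.44, 5.26 and 2.15, with adjusted p of 6.92e-06, 7.25e-10 and 3.27e-05. Slc7a7 was also called higher in chronic IFNG KP. Slc16a10, which carries aromatic amino acids, had 649.8 ± 89.1 counts in 1st relapse, 465 ± 23.8 in 2nd relapse and 306 ± 30.5 in late relapse, against 106 ± 24.1 in parental KP, a group under the limit. Slc1a2, a glutamate carrier known from astrocytes, lay at 155 to 288 counts in the group means of chronic IFNG and the 3 relapse groups, against 18.9 ± 4.80 in parental KP, also under the limit.

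Among sodium-coupled carriers of small neutral amino acids, some calls had opposite directions in the 2 lines and some had the same direction. Slc38a2 (SNAT2) had 16457, 14099 and 15480.0 counts in relapsed LLC1, against 11660.0, 10587 and 10173 in parental LLC1, a rise of 1.42-fold (log2 0.49 ± 0.08, adjusted p = 0.000482). In KP it had 7144, 7072 and 7208 counts in 1st relapse, against 13645, 12176 and 12631 in parental tumours, a fall to 0.557 (log2 -0.80 ± 0.07, adjusted p = 4.64e-07), and it fell to 0.724 in late relapse (adjusted p = 0.000102). In 2nd relapse it did not pass the test (-0.11, adjusted p = 0.169).

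Slc38a1 (SNAT1), a neighbour of Slc38a2 on chromosome 15, had 4540.1, 4160.2 and 4201 counts in relapsed and 2282, 2068 and 2374 in chronic IFNG, against 3371, 2951 and 2876 in parental LLC1. The 3 groups did not overlap, with a rise of 1.40-fold in relapsed tumours (adjusted p = 0.000466) and a fall to 0.731 in chronic IFNG (adjusted p = 0.00329). In KP it moved the other way in chronic IFNG, with 570.3, 428 and 409.6 counts against 177, 192 and 198 in parental tumours (2.48-fold, log2 0.59 ± 0.09, adjusted p = 0.000303). It rose 2.57-fold in late relapse (adjusted p = 6.17e-05) and was under the limit in 2nd relapse, at 81.5, 62.3 and 68.2 counts. Slc38a4, another carrier of the same cluster, was a member in LLC1 alone, and fell to 0.579 in chronic IFNG (969.6 ± 135 against 1675 ± 33.7 in parental tumours, adjusted p = 0.000652).

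Slc1a5 (ASCT2), which brings in glutamine, rose in relapsed tumours of both lines, 1.21-fold in LLC1 (adjusted p = 0.00955) and 2.30-fold, 1.42-fold and 1.51-fold in 1st, 2nd and late relapse KP (adjusted p = 1.92e-06, 0.00345 and 0.00132). Chronic IFNG KP was called higher as well. Slc6a6, the taurine carrier, had 6578, 6326 and 5914 counts in relapsed and 3507, 3208 and 3490.5 in chronic IFNG, against 4001, 4229 and 3797 in parental LLC1. Relapsed libraries stood above all others, with a rise of 1.56-fold (log2 0.59 ± 0.06, adjusted p = 2.98e-05). Slc6a9, a glycine carrier, rose 2.23-fold in relapsed LLC1 (644 ± 43.1 against 289 ± 32.8, adjusted p = 0.000526) and 2.37-fold in 2nd relapse KP (483 ± 60.1 against 204 ± 3.86, adjusted p = 2.14e-05). It was also called higher in chronic IFNG of both lines and in 1st relapse KP. Slc7a1, a carrier of arginine and lysine, rose 1.79-fold in late relapse (adjusted p = 1.92e-05). Slc43a2, a carrier of branched-chain and aromatic amino acids, fell in the 3 relapse groups, to 0.638, 0.560 and 0.437 of parental KP (adjusted p = 0.000445, 2.85e-05 and 2.93e-06).

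Slc7a2, an arginine carrier induced by interferon gamma in macrophages, was one of 6 carriers listed as interferon-linked, of which 3 could be tested in LLC1 and 4 in KP. In chronic IFNG limma called none of them in either line, and at an unadjusted p below 0.05 the count was 1 in LLC1 and 0 in KP. In relapsed LLC1 2 were higher and 0 lower, and in KP 1 and 0 in 1st relapse, 3 and 0 in 2nd relapse and 0 and 0 in late relapse, where the count at an unadjusted p below 0.05 was also 0. Slc7a2 had 1918, 2133 and 1477 counts in 2nd relapse, against 199.9, 1028 and 1149.9 in parental KP, where Parental replicate 1 stood far below the other 2 (2.32-fold, adjusted p = 0.0189). That call was lost without Parental replicate 1 and without 2nd relapse replicate 2, with an adjusted p of up to 0.111 over the alternatives.

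Carriers of bicarbonate, protons, chloride and sulphate set cell pH and volume. Of 20 in KP, 6 were called higher and 0 lower in chronic IFNG, 6 and 2 in 1st relapse, 8 and 3 in 2nd relapse and 10 and 5 in late relapse. Of 19 in LLC1, 3 were higher and 2 lower in chronic IFNG and 5 and 3 in relapsed tumours. Slc26a2 encodes the sulphate carrier that supplies the sulphation of cartilage proteoglycans. It had 5563, 4083 and 5582 counts in chronic IFNG, 9276, 7585 and 9298 in 1st relapse, 6836, 6060.0 and 6827 in 2nd relapse and 4248, 5440.4 and 6084 in late relapse, against 2200.3, 1565 and 1840.3 in parental KP. All 12 libraries lay above the parental ones. It rose 2.72-fold, 4.67-fold, 3.52-fold and 2.81-fold (log2 1.22, 1.95, 1.57 and 1.27, each ± 0.13), with adjusted p of 1.51e-05, 5.34e-08, 1.08e-07 and 2.67e-06. In LLC1 it lay at 533 ± 34.8 counts in relapsed and 610.4 ± 81.8 in parental tumours and did not pass the test (adjusted p = 0.168).

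Slc4a4 (chr5:88886818-89239653, plus strand) encodes the electrogenic sodium bicarbonate cotransporter of kidney and pancreas. It had 2775, 2692 and 2706 counts in chronic IFNG, 3099, 2817 and 2901 in 1st relapse, 4361, 4571 and 4070.5 in 2nd relapse and 2802, 3369 and 3947 in late relapse, against 1495, 1243 and 1417 in parental KP. The 4 groups again lay wholly above parental tumours, by 1.97-fold, 2.12-fold, 3.13-fold and 2.43-fold (log2 0.77, 0.87, 1.35 and 1.03, each ± 0.08, adjusted p = 1.38e-05, 1.22e-06, 3.81e-09 and 2.34e-07). In LLC1 only relapsed tumours passed the limit, at 123, 187 and 126 counts, with 97.5, 55.0 and 56.8 in chronic IFNG and 25.3, 21.1 and 32.4 in parental tumours.

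Slc9a2, a sodium-proton exchanger of the apical membrane of epithelia, was among the members lowest in relapsed LLC1. It had 175, 195 and 210.1 counts in relapsed and 401, 452 and 449.8 in chronic IFNG, against 979.6, 777 and 655 in parental LLC1. The 3 groups did not overlap, and it fell to 0.241 in relapsed (log2 -1.07 ± 0.08, adjusted p = 5.2e-06) and to 0.540 in chronic IFNG (-0.53 ± 0.08, adjusted p = 0.00205). In KP it rose 2.27-fold in 2nd relapse (2333 ± 109.5 against 1029.7 ± 166, adjusted p = 6.87e-07) and 1.74-fold in late relapse (adjusted p = 8.66e-05). Slc9a9, a sodium-proton exchanger of endosomes, rose 3.31-fold in relapsed LLC1, with 739.8, 598 and 481 counts against 163, 210.3 and 177 in parental tumours (log2 0.84 ± 0.10, adjusted p = 8.4e-05). Slc26a9, a chloride carrier of airway and stomach epithelium, passed the limit in chronic IFNG (171 ± 56.2) and 1st relapse KP (199 ± 15.2), with 48.1 ± 16.4 in 2nd relapse, 71.8 ± 18.1 in late relapse and 15.8 ± 2.83 in parental tumours.

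Sugar and monocarboxylate carriers were few. Of 8 sugar carriers in KP, 6 were called higher and 1 lower in 2nd relapse and 3 and 0 in 1st relapse, and of 9 in LLC1, 2 and 0 in relapsed and 0 and 3 in chronic IFNG. Slc37a1, an exchanger of glucose 6-phosphate for phosphate in the endoplasmic reticulum, had 984, 717 and 1026 counts in chronic IFNG, 1280.1, 1216 and 1565 in 1st relapse and 546, 551 and 516 in 2nd relapse, against 343, 248 and 354 in parental KP. It rose 2.88-fold, 4.30-fold and 1.71-fold (adjusted p = 9.87e-05, 8.13e-07 and 0.00783). Late relapse, at 341, 446 and 657 counts, was also called higher by limma, although its libraries overlapped with parental tumours. Slc2a6, a glucose carrier of lysosomes in macrophages, reached the limit in LLC1 in relapsed tumours alone, with 128, 128 and 151 counts, 9.76, 17.4 and 24.1 in chronic IFNG and 27.8, 29.6 and 41.6 in parental tumours. Slc2a3, the glucose carrier GLUT3, fell to 0.599 of parental LLC1 in chronic IFNG (adjusted p = 0.0152).

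Slc16a1 encodes MCT1, a carrier of lactate and pyruvate that needs the chaperone basigin (Bsg) or embigin (Emb) to reach the membrane. Per kilobase of exon it was the 2nd highest member in parental LLC1, at 2336 normalised counts per kb. It had 6268, 7013 and 7225 counts in chronic IFNG, against 11050.0, 10609 and 9358 in parental LLC1, and fell to 0.661 (log2 -0.56 ± 0.07, adjusted p = 0.000865). Relapsed libraries, at 10868, 10890.0 and 11682, overlapped the parental ones. Emb, at 883 ± 83.3 in chronic IFNG and 2177 ± 341 in parental LLC1, fell to 0.406 (adjusted p = 0.000322), and Bsg to 0.849 (adjusted p = 0.0406). In KP the remaining members of the monocarboxylate family were above the limit in some groups only. Slc16a6 had 268, 319.8 and 219 counts in 2nd relapse and 235, 303 and 232 in late relapse, against 18.7, 13.5 and 9.49 in parental tumours. Slc16a9 had 227, 279.8 and 275 counts in 2nd relapse, against 17.5, 16.9 and 10.9 in parental tumours. Slc16a11 went the other way, with 42.8, 22.7 and 29.6 counts in 2nd relapse, against 352, 365 and 260.0 in parental tumours.

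**Figure D4:**
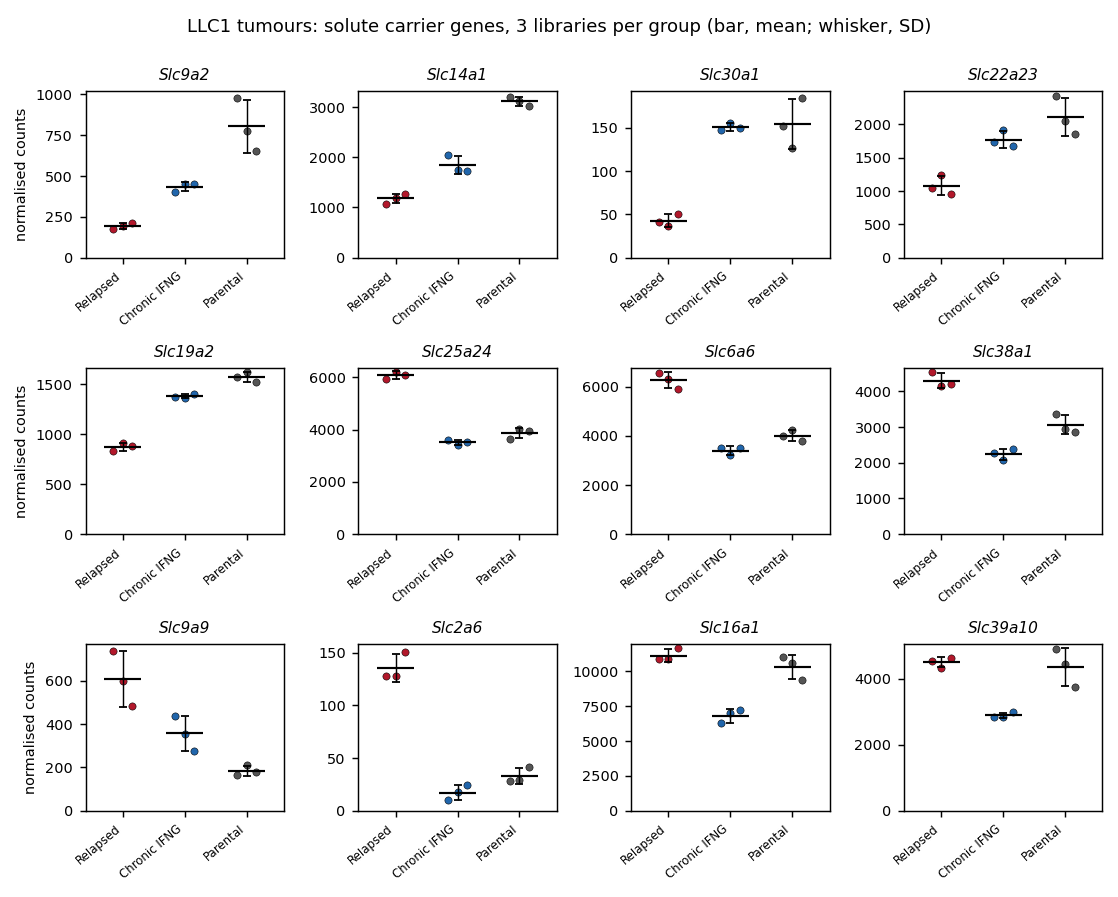
Normalised counts of 12 members in each LLC1 library (points) with the group mean (bar) and SD (whisker), each panel on a linear axis from 0, for relapsed, chronic IFNG and parental tumours. Slc9a2, Slc14a1 and Slc30a1 are lowest in relapsed tumours, Slc9a9 and Slc2a6 are highest there, and Slc16a1 and Slc39a10 are lowest in chronic IFNG tumours.

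Mitochondrial carriers of the Slc25 family were the largest class. Of 33 in LLC1, 3 were called higher and 5 lower in chronic IFNG and 11 higher and 1 lower in relapsed tumours. Of 34 in KP, 7 were higher and 1 lower in chronic IFNG, 13 and 5 in 1st relapse, 14 and 10 in 2nd relapse and 13 and 8 in late relapse. Shares of all genes called higher and lower were 9.03% and 15.5% in chronic IFNG and 25.9% and 19.5% in relapsed LLC1. In KP these shares were 12.8% and 9.00% in chronic IFNG and 25.4% and 25.5% in 1st relapse. They were 36.8% and 29.0% in 2nd relapse and 31.0% and 25.9% in late relapse. Per kb of exon the ADP/ATP carriers Slc25a5 and Slc25a4 were among the highest members of parental tumours, with 3904 and 1889 counts per kb in LLC1 and 2380 and 2953 in KP. These paralogues are close in sequence, and how the counting shared reads between them is not given in the sources used here. In 2nd relapse KP the pair diverged, with 2734, 2571 and 2733 counts of Slc25a5 against 3799, 4355 and 3597 in parental tumours (0.684, adjusted p = 1.31e-05), and 8500.3, 7911 and 9116 counts of Slc25a4 against 6813, 7345 and 6686 (1.22-fold, adjusted p = 0.00156, lost under quantile normalisation).

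Slc25a24, which exchanges ATP-magnesium for phosphate, had 5929, 6219 and 6088 counts in relapsed and 3595, 3411 and 3515 in chronic IFNG, against 3655, 4031 and 3938 in parental LLC1. Relapsed libraries lay above all others (1.57-fold, log2 0.59 ± 0.05, adjusted p = 9.57e-06). In KP it rose in 2nd relapse (6865 ± 437 against 3814 ± 334 in parental tumours, log2 0.77 ± 0.07, adjusted p = 1.6e-07) and 1.65-fold in late relapse (adjusted p = 2.18e-06). Slc25a32, a carrier of folate and flavin adenine dinucleotide, rose 1.58-fold in relapsed LLC1 (adjusted p = 0.000108) and 1.96-fold in 2nd relapse KP (1027 ± 54.6 against 523 ± 46.8, adjusted p = 3.78e-08). Slc25a13 (citrin), which exchanges aspartate for glutamate, fell to 0.759 in chronic IFNG LLC1 (adjusted p = 0.00952), rose 1.27-fold in relapsed LLC1 (adjusted p = 0.00629) and fell to 0.445 in 2nd relapse KP (302 ± 16.2 against 678 ± 88.6, adjusted p = 9.32e-07). Slc25a36, a pyrimidine nucleotide carrier, fell to 0.453 in 2nd relapse KP (adjusted p = 3.09e-08) and to 0.729 in late relapse (adjusted p = 0.000308). Slc25a27 lay at 84.2 ± 22.0 counts in 2nd relapse and 102 ± 20.5 in late relapse, both under the limit, against 407 ± 69.2 in parental KP.

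Nucleotide sugar carriers supply the glycosylation of secreted and membrane proteins. The class counted here is the whole Slc35 family, with members such as Slc35g1 and Slc35g2 for which no nucleotide sugar is given here. Its counts are thus not a measure of nucleotide sugar supply. Of 21 in KP, 4 were called higher and 1 lower in chronic IFNG and 7 and 3 in 1st relapse. In 2nd relapse 10 were higher and 4 lower, and in late relapse 9 and 3. Of 20 in LLC1, 4 were higher and 1 lower in relapsed tumours. Slc35c1, the GDP-fucose carrier of the Golgi, had 625, 430.3 and 644 counts in chronic IFNG, 720.0, 785 and 864 in 1st relapse, 429, 418 and 432 in 2nd relapse and 416, 438 and 423 in late relapse, against 254, 169 and 249 in parental KP. It lay above the parental libraries in all 12, with folds of 2.53, 3.52, 1.90 and 1.90 (adjusted p = 3.74e-05, 2.95e-07, 0.000232 and 0.000357). Slc35a3, the UDP-N-acetylglucosamine carrier, rose by folds of 1.59, 1.91, 1.51 and 1.47 in the same groups (adjusted p = 0.000235, 2.45e-06, 0.000111 and 0.000318). Neither passed the test in relapsed LLC1 (log2 -0.08, adjusted p = 0.325, and 0.05, adjusted p = 0.459). Slc35g2, a member of the family with no role given here, had 324, 453 and 489 counts in 2nd relapse, against 9.80, 31.9 and 20.9 in parental KP.

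Of 6 carriers of iron, copper, magnesium or haem in KP, 1 was called higher and 4 lower in 2nd relapse, where 29.0% of all genes were lower, 0 and 1 in chronic IFNG and in 1st relapse, and 0 and 2 in late relapse. Slc48a1, which carries haem out of endosomes and lysosomes, had 1414, 1851 and 1658 counts in 1st relapse, 637, 547 and 609 in 2nd relapse and 1409, 1264 and 1272 in late relapse, against 2356, 2367 and 2494 in parental KP. Each stage lay below the parental libraries and 2nd relapse below all others, at 0.682, 0.248 and 0.546 of the parental mean (log2 -0.44, -1.43 and -0.68, each ± 0.07, adjusted p = 0.000114, 2.97e-10 and 1.91e-06). In LLC1 it fell to 0.778 in chronic IFNG (adjusted p = 0.0077), and in chronic IFNG KP it was also called lower. Slc31a2, a copper carrier, rose 1.79-fold in relapsed LLC1, with 744, 725 and 776 counts against 406, 474 and 377 in parental tumours (adjusted p = 4.12e-05).

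Slc14a1, the urea carrier of kidney and red cells, moved in opposite directions in relapsed LLC1 and 2nd relapse KP. It had 1078, 1196 and 1262 counts in relapsed and 2047, 1742 and 1733 in chronic IFNG, against 3207, 3124 and 3016 in parental LLC1, 3 groups without overlap. It fell to 0.378 (log2 -1.13 ± 0.06, adjusted p = 8.05e-07) and 0.591 (-0.64 ± 0.06, adjusted p = 0.000393). In KP it had 2876, 3393 and 3571 counts in 2nd relapse, against 1671, 1973 and 1746 in parental tumours (1.83-fold, adjusted p = 5.11e-05), and fell to 0.576 in 1st relapse (adjusted p = 0.000504) and to 0.786 in late relapse (adjusted p = 0.0481). The late relapse call was lost without any 1 Parental library or Late relapse replicate 2 or 3 (adjusted p over all alternatives up to 0.222). The erythroid markers summed to 23.4 to 56.1 CPM in relapsed, against 8.76 to 11.7 CPM in parental LLC1, and to 25.0 to 31.3 CPM in 2nd relapse, against 21.9 to 27.0 CPM in parental KP.

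Slc22a23, a family member whose substrate is not known, had 1052, 1235 and 958 counts in relapsed, against 2426, 2052 and 1862 in parental LLC1 (0.512, log2 -0.74 ± 0.09, adjusted p = 8.48e-05). It also fell in 1st, 2nd and late relapse KP, to 0.494, 0.794 and 0.564 (adjusted p = 1.37e-07, 0.00119 and 7.65e-07), and was called lower in chronic IFNG KP. Slc20a1, a sodium-phosphate cotransporter, fell to 0.782 in relapsed LLC1 (adjusted p = 0.00855) and rose 1.30-fold in chronic IFNG LLC1 (adjusted p = 0.012), while in KP it rose 1.57-fold, 1.51-fold and 1.67-fold in 1st, 2nd and late relapse (adjusted p = 1.27e-06, 1.27e-06 and 3.36e-07). Slc20a1 was also called higher in chronic IFNG KP, so the chronic IFNG calls of the 2 lines had the same direction. Slc27a6, a fatty acid carrier known from heart, had 349.9, 425 and 502 counts in 2nd relapse and 394, 240.2 and 252 in late relapse, against 6.56, 1.75 and 0.750 in parental KP. Chronic IFNG and 1st relapse libraries held 0.945 to 25.0 counts.

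Of the 4 members that are named after a carrier without being one, Slc9a3r1 encodes the scaffold protein NHERF1, which holds carriers and channels at the apical membrane. It rose in 1st, 2nd and late relapse KP, to 1504 ± 107, 1864 ± 32.5 and 2302 ± 136 counts, against 1163 ± 24.6 in parental tumours (1.29-fold, 1.60-fold and 1.98-fold, adjusted p = 0.000288, 2.55e-07 and 1.63e-08). In LLC1 it rose 1.74-fold in relapsed tumours (314 ± 26.0 against 180.2 ± 33.0, adjusted p = 0.000801).

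On some chromosomes the calls of members went the way of the other genes there, and on others they did not. In relapsed LLC1 7 of 10 members on chromosome 3 were called higher, Slc25a24 among them, and 69.4% of the 526 genes tested there were called higher, against 25.9% of all genes. On chromosome 18, which carries Slc14a1, 3 of 6 members were lower and 66.4% of 280 genes were lower. In 2nd relapse KP 5 of 6 members on the X chromosome were lower, Slc25a5 among them, where 68.4% of 329 genes were lower. Of 10 members on chromosome 15, which carries Slc39a4, Slc52a2 and Slc25a32, 5 were higher and 3 lower, where 59.9% of 469 genes were higher. The median log2 difference there was 0.02 over members and 0.29 over all genes. On chromosome 17, 6 of 10 members were higher and 2 lower, where 21.25% of 560 genes were higher and 43.2% lower. The part of these chromosome-wide shifts in the members' values was not tested.

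Set side by side, 19 members were called in relapsed LLC1 and also in all 3 KP relapse groups with 1 direction over those 3, which share their parental libraries. Of these, 7 were higher in both lines (Slc1a5, Slc25a24, Slc33a1, Slc35g1, Slc4a4, Slc50a1 and Slc9a3r1) and 2 lower in both (Slc22a23 and Slc38a7). In another 5 relapsed LLC1 was higher and KP lower (Slc25a27, Slc30a4, Slc39a13, Slc44a2 and Slc8b1), and in the other 5 relapsed LLC1 was lower and KP higher (Slc16a10, Slc19a2, Slc1a4, Slc20a1 and Slc30a1). They made up 19 of 56 shared members called in relapsed LLC1, 19 of 39 called in 1 direction in all 3 KP relapse groups, and 13.6% of the 140 shared members. Over the 9822 genes tested in both lines, 956 (9.73%) met the same rule, 294 higher in both, 206 lower in both, 264 higher in LLC1 and lower in KP and 192 lower in LLC1 and higher in KP, so that 47.7% moved in opposite directions. Moving in opposite directions in the 2 lines was thus about as common over all genes as among the members. Slc4a4 and Slc30a1 in LLC1 and Slc25a27 and Slc16a10 in KP owe part of these calls to a group under the limit.

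Among both-higher members, Slc35g1, a carrier-like protein of the endoplasmic reticulum, had 950.4, 950.3 and 997 counts in relapsed LLC1, against 641, 546 and 585 in parental LLC1 (1.63-fold, adjusted p = 9.02e-05). In KP it had 880.1 ± 111 counts in 1st, 492 ± 29.8 in 2nd and 513 ± 54.7 in late relapse, against 322 ± 33.0 in parental tumours (2.73-fold, 1.53-fold and 1.59-fold, adjusted p = 1.12e-06, 0.0029 and 0.00193). Slc33a1, the acetyl-CoA carrier of the endoplasmic reticulum, rose 1.36-fold in relapsed LLC1 (adjusted p = 0.00163) and 1.42-fold, 1.53-fold and 1.40-fold in the KP stages (adjusted p = 0.000145, 8.83e-06 and 0.000176). Slc50a1, a sugar carrier, rose 1.27-fold in relapsed LLC1 (adjusted p = 0.00722) and 1.26-fold, 1.57-fold and 1.61-fold in KP (adjusted p = 0.00379, 4.39e-06 and 4.97e-06). Slc38a7, a glutamine carrier of lysosomes, fell to 0.768 in relapsed LLC1 (adjusted p = 0.00837) and to 0.691, 0.726 and 0.594 in KP (adjusted p = 8.14e-05, 0.000135 and 3.56e-06). It was called lower in chronic IFNG KP too.

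Several of these calls did not hold when 1 library was left out, and for each this was so for more than 1 choice of library. In relapsed LLC1 those of Slc16a10 (lost without Parental replicate 2 or 3 or Relapsed replicate 2 or 3, adjusted p up to 0.0798), Slc1a4 (without Parental replicate 3 or Relapsed replicate 2 or 3, up to 0.0787), Slc25a27 (without Parental replicate 1 or 2 or Relapsed replicate 1, up to 0.0556) and Slc44a2 (without Parental replicate 1 or Relapsed replicate 1 or 3, up to 0.0533) were lost. In 1st relapse KP those of Slc30a1 and Slc25a24 were lost without Parental replicate 3 or 1st relapse replicate 1 (adjusted p over all alternatives up to 0.752 and 0.146). In late relapse those of Slc30a4 (without Parental replicate 1 or 2 or Late relapse replicate 2 or 3, up to 0.112) and Slc8b1 (without Parental replicate 1 or 3 or Late relapse replicate 1 or 3, up to 0.152) were lost.

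**Figure D5:**
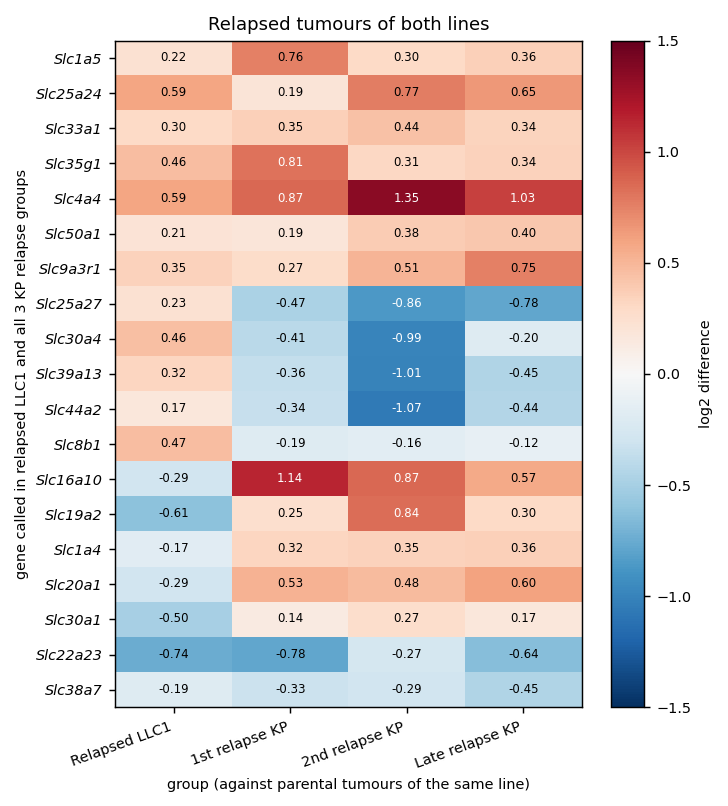
Log2 difference from parental tumours, as a colour scale, for the 19 members called in relapsed LLC1 and in 1 direction in all 3 KP relapse groups. From top to bottom stand 7 members higher in both lines, 5 higher in LLC1 and lower in KP, 5 lower in LLC1 and higher in KP, and 2 lower in both. Slc19a2 ranges over -0.61 in relapsed LLC1 and 0.84 in 2nd relapse KP.

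Other lists of carriers gave mixed counts. Of 7 hypoxia-linked carriers tested in LLC1, 2 were higher and 3 lower in chronic IFNG and 2 and 2 in relapsed tumours. Of 6 tested in KP, 3 were higher and 0 lower in chronic IFNG and 2 and 0 in 1st relapse. In 2nd relapse 4 were higher and 0 lower, and in late relapse 2 and 1. Of 11 carriers listed for kidney or gut, 0 could be tested in LLC1 and 2 in KP, Slc39a4 and Slc44a4, whose parental groups lay under the limit. Of 4 erythroid carriers tested in KP, 0 were higher and 2 lower in 1st and in late relapse. In 2nd relapse 1 was higher and 1 lower, and in chronic IFNG 0 and 0. Of 4 tested in LLC1, 0 were higher and 1 lower in chronic IFNG and in relapsed tumours.

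The limit left some genes close on either side. In LLC1 the highest group mean of Slc2a9 lay 1.00 and that of Slc25a53 1.01 log2 units above the lowest value, while Slc22a21 lay 0.997 and Slc25a26 0.925 above it and were not members. In KP Slc52a3 and Slc9b2 lay 1.01 above it, and Slc25a14 and Slc26a11, 0.995 above it, were not members. Choosing members by the mean over all libraries instead left 148 in LLC1 and 153 in KP, with 42 higher and 15 lower in relapsed LLC1 and 70 and 43 in 2nd relapse KP.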

How the data were processed

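The authors deposited 1 table per line of log2-scale values after variance stabilisation, judged so from the tables' values (lowest value 8.03 in LLC1 and 8.17 in KP, taken as a count of 0). Per the submitters' processing notes, the build was GRCm38/mm10 and the tools named, without their roles, were DESeq2 1.34.0, Salmon 1.8.0 and cutadapt 2.9. The extract protocol in the labels names a stranded total RNA kit and sequencing on a NovaSeq. Inverting a stabilisation with that lower limit gave the normalised counts used here. Of low values, 72.6% to 79.1% per library came out whole (within 0.15 reads, where chance gives 30%), so depth is an estimate and no count test was run. Of the identifiers, 70 in LLC1 and 85 in KP had no match in GENCODE vM21.

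Differences were fitted with limma 3.58.1 (R 4.3.3, intensity trend, all groups of a line in 1 fit) over 10581 LLC1 and 11193 KP genes, and called at an adjusted p below 0.05. The fit was tested on simulated data. With 3 libraries against 3, an exact test cannot go below 0.1. The members, classes and gene lists were chosen with earlier results of these data known. Members were named by a rule on size of difference, class, list and agreement between lines, which picked 117, of which 62 have values here. Replicate numbers did not pair libraries: correlations of same-numbered deviations ran over -0.3 to 0.08 in LLC1 and -0.22 to 0.27 in KP. Promoter sequences came from RefSeq, matched by symbol for 138 of 181 members. Figures were made in matplotlib 3.10.9 under Python 3.11.15. The KP genotype is not reported here.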

Additional observations from a re-analysis of the deposited data

Results flagged for a closer look

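The members below had every library of an LLC1 group on 1 side of parental tumours and every library of a KP group on the other side. How often all genes did so was not calculated. The 2 tables were normalised separately, so the difference between the lines was not tested, and the 3 KP relapse comparisons share their parental libraries. Values are log2 differences from parental tumours on the deposited scale.

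In chronic IFNG, Slc38a1 differed by -0.38 in LLC1 and 0.59 in KP, Slc19a2 by -0.14 and 0.34, and Slc35g1 by -0.30 and 0.58. Of the members called in chronic IFNG of both lines, 8 were higher in both and 3 lower in both. Another 3 were lower in LLC1 and higher in KP, and 0 the reverse. Of the 140 shared members, 34 were called in chronic IFNG LLC1 and 28 in chronic IFNG KP. The matching share over all genes was not calculated.

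Relapsed LLC1 was higher and at least 1 KP relapse group lower for 8 members. Slc39a13 differed by 0.32 in relapsed LLC1 and by -0.36, -1.01 and -0.45 in 1st, 2nd and late relapse KP. Slc30a4 differed by 0.46 in LLC1 and by -0.41, -0.99 and -0.20 in the same KP groups. The values of Slc25a27 were 0.23, then -0.47, -0.86 and -0.78, and those of Slc44a2 0.17, then -0.34, -1.07 and -0.44. Slc38a2 differed by 0.49 in LLC1 and by -0.80 in 1st and -0.44 in late relapse. Slc8b1 differed by 0.47 in LLC1 and by -0.19 in 1st and -0.16 in 2nd relapse. Slc25a13 differed by 0.24 in LLC1 and -0.62 in 2nd relapse KP, and Slc38a1 by 0.43 and -0.43. The 2nd relapse mean of Slc38a1 lay under the limit, and in late relapse KP Slc38a1 was called higher, as in relapsed LLC1.

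Relapsed LLC1 was lower and KP higher for Slc16a10 (-0.29, against 1.14, 0.87 and 0.57 in 1st, 2nd and late relapse), Slc1a4 (-0.17, against 0.32, 0.35 and 0.36), Slc20a1 (-0.29, against 0.53, 0.48 and 0.60), Slc30a1 (-0.50, against 0.14, 0.27 and 0.17) and Slc19a2 (-0.61, against 0.25, 0.84 and 0.30). Slc9a2 differed by -1.07 in LLC1 and by 0.90 in 2nd and 0.59 in late relapse, and Slc14a1 by -1.13 in LLC1 and 0.71 in 2nd relapse KP. In 1st and late relapse KP Slc14a1 was called lower, as in relapsed LLC1.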

How the results depend on the processing

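Alternatives were no filter, a stricter filter, quantile normalisation, median centring, no trend, array weights, the replicate block, fits of 2 groups only, normalised counts plus 10 or 50 on a log2 scale, and leaving out each library. Choosing members by their mean over all libraries was added after the data were seen. The stricter filter (3 log2 units) tests fewer genes by construction and left 2 higher and 15 lower members in chronic IFNG LLC1, 13 and 9 in relapsed LLC1, 22 and 9 in relapsed against chronic IFNG LLC1, 10 higher in chronic IFNG KP, 14 and 9, 26 and 10, and 20 and 18 in 1st, 2nd and late relapse, 25 and 10 in 2nd against 1st relapse, 14 and 24 in late against 2nd relapse, and 33 in LLC1 and 45 in KP by the F test. Chronic IFNG LLC1 gave 8 higher and 14 lower without a filter and 9 and 15 in a fit of 2 groups. Chronic IFNG KP gave 4 lower without a filter and 18 with median centring. The cause was not tested.

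Leaving out 1 library gave 8 to 18 higher and 14 to 23 lower in chronic IFNG LLC1 (8 higher without Parental replicate 1, and 15 and 14 lower without Parental replicates 1 and 2), 36 to 44 and 11 to 17 in relapsed LLC1, 48 to 56 and 18 to 21 in relapsed against chronic IFNG, 27 to 35 and 4 to 11 in chronic IFNG KP (6, 5, 4 and 6 lower without Parental replicates 1 and 2 and Chronic IFNG replicates 1 and 3), 52 to 59 and 25 to 29 in 1st, 71 to 74 and 43 to 45 in 2nd and 59 to 66 and 33 to 38 in late relapse, 45 to 53 and 52 to 54 in 2nd against 1st relapse, 40 to 47 and 44 to 47 in late against 2nd relapse, and 69 to 85 and 146 to 152 in the F tests. With the replicate number as a block the counts were 10 and 19, 46 and 16, and 54 and 21 in LLC1 and 34 and 9, 56 and 28, 75 and 47, 69 and 37, 53 and 54, and 45 and 51 in KP, in the order above. The numbers did not pair libraries.

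Of 360 calls of members with values here, 299 held under every alternative, 61 were lost under 1 or more (54 of them when 1 library was left out) and 0 changed direction, and 40 comparisons not called gained a call under 1 or more. Depth of 13.3 to 35.0 M fragments limits members near the limit of 130.4 normalised counts in LLC1 and 144.2 in KP.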
